A study of Mus musculus with 2 samples.

Results

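The Mir106b-25 and Mir106a-363 clusters are the paralogs of the better known Mir17hg cluster, which starts with miR-17, and together they hold 9 of the 1973 miRNA genes counted in these data. The members were chosen by gene name: Mir106b, Mir93 and Mir25 for the Mir106b-25 cluster, and Mir106a, Mir18b, Mir20b, Mir19b-2, Mir92-2 and Mir363 for the Mir106a-363 cluster. All 9 had a row of their own and were counted in both libraries. Small RNA was sequenced from whole liver of healthy B6NCrl mouse embryos at embryonic day 16.5, with no allele, agent or treatment named in the labels. There was 1 group, with 2 biological replicates that pooled livers of both sexes; 41 embryos went into the pool of replicate 2, and the labels do not number those of replicate 1. The data therefore give levels within fetal liver and the difference between these 2 pools.

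miRNAs are cut from hairpin precursors and repress messenger RNAs that pair with them, mainly through the seed, bases 2 to 8 of the mature miRNA. Several hairpins can lie on 1 primary transcript, and the products then start from the same RNA. The miR-17 family is known for holding down Cdkn1a, a cell cycle inhibitor, and Bcl2l11, a factor that starts cell death, and the related clusters are active in dividing cells and blood progenitors. Fetal liver holds both dividing hepatoblasts and a large blood-forming compartment.

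The Mir106b-25 hairpins lie within 498 bases on the minus strand of chromosome 5 (138165321 to 138165818 of mm10), inside Mcm7, which encodes a subunit of the helicase that opens DNA for replication. Along the transcript, Mir106b (ENSMUSG00000065514.1, 138165737 to 138165818) comes first. Mir93 (ENSMUSG00000065527.1, 138165523 to 138165610) follows after 126 bases, and Mir25 (ENSMUSG00000065394.1, 138165321 to 138165404) after 118 more. None of the 3 overlapped an exon of the 7 protein-coding Mcm7 transcripts in the annotation. Which of those transcripts span the hairpins was not tested. Mir93 and Mir25 fall within an exon of 1 Mcm7 transcript that retains an intron. The Mir106a-363 hairpins lie within 875 bases on the minus strand of the X chromosome (52741693 to 52742567). In transcript order they are Mir106a (ENSMUSG00000065456.1, 52742503 to 52742567), Mir18b (ENSMUSG00000077111.2, 52742331 to 52742413), Mir20b (ENSMUSG00000076041.1, 52742113 to 52742192), Mir19b-2 (ENSMUSG00000065473.1, 52741983 to 52742066), Mir92-2 (ENSMUSG00000065613.1, 52741838 to 52741928) and Mir363 (ENSMUSG00000070106.1, 52741693 to 52741767). Mir106a overlaps an exon of the noncoding gene Kis2 by 5 bases, and the other 5 overlap no annotated non-miRNA gene on their strand.

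The 9 members carry only 4 different seeds among their guide arms, the arms usually loaded into the silencing complex. The guide arms are shown because the paralogs are told apart by single bases outside the seed, which decides where a read can be counted. Sequences are from RefSeq (GRCm38.p6), where all 9 members were matched, and capitals mark the seed. The miR-17 family includes 4 members, set here beside miR-17-5p and miR-20a-5p of the Mir17hg cluster.
miR-106b-5p: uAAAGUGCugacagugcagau
miR-93-5p: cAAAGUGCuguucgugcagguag
miR-106a-5p: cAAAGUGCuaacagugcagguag
miR-20b-5p: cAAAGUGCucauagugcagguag
miR-17-5p: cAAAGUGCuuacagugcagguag
miR-20a-5p: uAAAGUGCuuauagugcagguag
The miR-25 family includes 3 members, with miR-32-5p as a relative encoded elsewhere.
miR-25-3p: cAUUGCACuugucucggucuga
miR-92a-3p: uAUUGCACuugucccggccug
miR-363-3p: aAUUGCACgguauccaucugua
miR-32-5p: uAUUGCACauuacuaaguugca
The miR-18 and miR-19 families have 1 member each here, Mir18b and Mir19b-2, and miR-18a-5p is the Mir17hg counterpart of the former.
miR-18b-5p: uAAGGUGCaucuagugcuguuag
miR-18a-5p: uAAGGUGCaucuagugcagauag
miR-19b-3p: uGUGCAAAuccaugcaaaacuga

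With positions counted from 1 at the 5′ end, miR-17-5p and miR-106a-5p differed by a single substitution over 23 bases, U10A from the former to the latter. From miR-20a-5p to miR-20b-5p the substitutions were U1C and U10C, and from miR-18a-5p to miR-18b-5p they were A18U and A20U. From miR-92a-3p to miR-25-3p the substitutions over 21 bases were U1C, C14U and C18U. By contrast, miR-25-3p and miR-363-3p differed at 13 of 22 bases, none of them in the seed. The pairs are thus alike in the seed and differ to very unequal degrees outside it.

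For Mir19b-2 and Mir92-2 the guide arm is identical to that of a Mir17hg gene. Of the 17 RefSeq arms of the 9 members, 2 occurred in more than 1 listed hairpin, namely miR-19b-3p (Mir19b-1 and Mir19b-2) and miR-92a-3p (Mir92-1 and Mir92-2). Among 1501 arms of 916 listed genes, 7.59% occurred in more than 1 hairpin. The hairpin stretches below, each with 4 bases on either side of the arm in lower case, show where the copies part.
Mir92-1: auggUAUUGCACUUGUCCCGGCCUGuuga
Mir92-2: aaagUAUUGCACUUGUCCCGGCCUGagga
Mir19b-1: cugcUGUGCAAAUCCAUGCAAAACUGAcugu
Mir19b-2: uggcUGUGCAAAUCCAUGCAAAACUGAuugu
The run shared by both copies was 22 bases long for miR-92a-3p and 25 bases for miR-19b-3p. A read that stays within it has the same sequence from either gene. Reads that matched several places were tallied apart from the genes (28.1% and 28.2% of all reads in replicates 1 and 2), so the counts of Mir92-2 and Mir19b-2, and of their Mir17hg copies, cannot be read as the level of the mature miRNA. How many of the tallied reads belong to them was not tested.

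**Figure D1:**
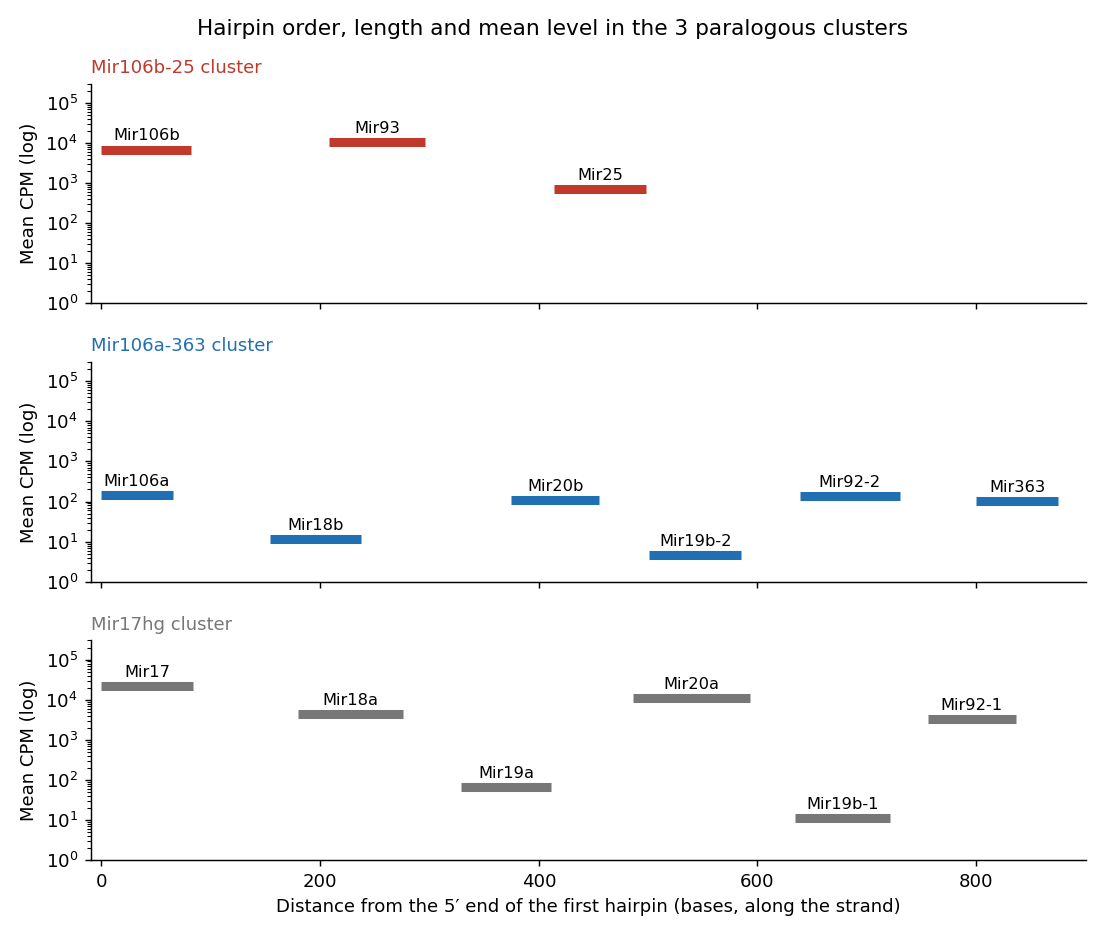
Hairpins of the 3 paralogous clusters drawn to scale along their strand, in bases from the 5′ end of the first hairpin (x axis), at the mean level over 2 libraries in CPM (y axis, log scale). The 3 hairpins of the Mir106b-25 cluster lie between 716 and 10347 CPM and the 6 of the Mir106a-363 cluster between 4.69 and 142 CPM, although the latter is spread over a span much like that of Mir17hg.

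The Mir106b-25 cluster was abundant in fetal liver and was led by Mir93. Levels are counts on the annotated strand scaled to 1000000 such counts in each library (CPM). Mir93 had 68117 counts in replicate 1 and 46974 in replicate 2, which are 11487 and 9206 CPM (10347 ± 1612, SD, n = 2) and place it at rank 25 of the 1973 genes. Mir106b had 42861 and 32611 counts, or 7228 and 6391 CPM (6810 ± 591, n = 2), at rank 35. Both are miR-17 family members, and their libraries did not overlap, since the lower Mir93 value lay above the higher Mir106b value.

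Mir25, the miR-25 family member and the most 3′ hairpin of the same cluster, was much lower, with 4764 and 3210 counts, or 803 and 629 CPM (716 ± 123, n = 2), at rank 97. Within each library Mir106b exceeded Mir25 by 9.00-fold and 10.2-fold, and Mir93 exceeded Mir106b by 1.59-fold and 1.44-fold. The order Mir93, Mir106b, Mir25 was the same in both pools. Mir93 made up 58.9% and 56.7% of the cluster's counts, Mir106b 37.0% and 39.4%, and Mir25 4.12% and 3.88%. No 18-base word of these 3 hairpins recurs in another hairpin of the table. Counts per gene were not divided by length, because a small RNA read is a whole mature miRNA. A bias between sequences in library preparation would be in both libraries alike, so the same order in both pools does not exclude it. Such a bias was not tested.

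The Mir106a-363 cluster was detected at a far lower level, with 4 members near 100 CPM and 2 near or below 10 CPM. Of the miR-17 family members, Mir106a had 798 and 762 counts (135 and 149 CPM, mean 142 ± 10.4, rank 166). Mir20b had 583 and 598 counts (98.3 and 117 CPM, mean 108 ± 13.4, rank 182). Mir106a exceeded Mir20b by 1.37-fold and 1.27-fold, in the same order in both libraries.

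The miR-25 family members of this cluster lay in the same range by gene counts, which for Mir92-2 leave out the reads shared with Mir92-1. Mir92-2 had 912 and 625 counts (154 and 122 CPM, mean 138 ± 22.1, rank 168), and Mir363, the most 3′ hairpin, had 668 and 490 (113 and 96.0 CPM, mean 104 ± 11.7, rank 183). Mir92-2 was above Mir106a in replicate 1 (1.14-fold) and below it in replicate 2 (0.820-fold), so these could not be ranked against each other. Mir20b and Mir363 could not be ranked either, because Mir363 was higher in replicate 1 and Mir20b in replicate 2. In replicate 2 the 95% Clopper-Pearson intervals of Mir92-2 (113 to 132 CPM) and Mir20b (108 to 127 CPM) overlapped as well. Such intervals cover the counting error of reads alone. Copies made by PCR are not separate molecules, so for molecules the intervals can be too narrow.

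By gene counts the miR-18 and miR-19 members were the lowest. Mir18b had 69 and 60 counts (11.6 and 11.8 CPM, mean 11.7 ± 0.0876, rank 270), with intervals of 9.05 to 14.7 and 8.97 to 15.1 CPM. Mir19b-2 had 30 and 22 counts (5.06 and 4.31 CPM, mean 4.69 ± 0.528, rank 316), with intervals of 3.41 to 7.22 and 2.70 to 6.53 CPM. These intervals do not overlap, so the gene counts of Mir19b-2 lay below those of Mir18b beyond the counting error of reads in each library. Reads that fit both Mir19b-2 and Mir19b-1 are left out of these counts, so the order of the mature miRNAs was not tested. Of the 18-base words of Mir19b-2, 11.9% recur in another hairpin of the table, and of those of Mir92-2 6.76%; the other 4 genes of this cluster have none that recur.

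**Figure D2:**
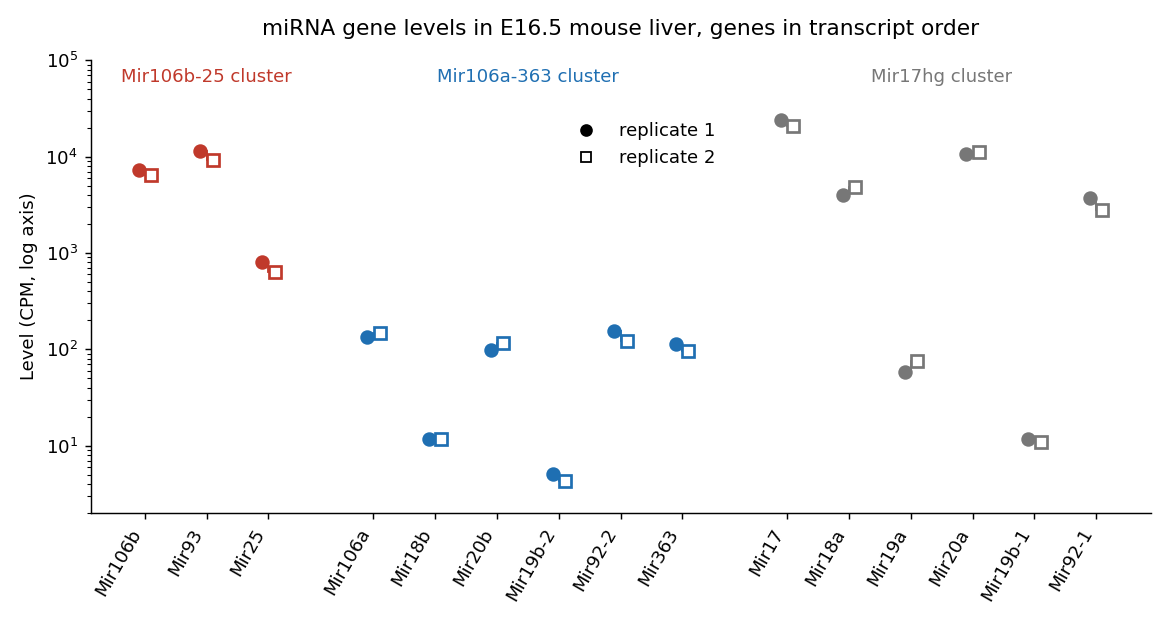
Level of each gene in CPM (y axis, log scale) in replicate 1 (filled circles) and replicate 2 (open squares), for the 3 paralogous clusters in transcript order. The Mir106b-25 genes lie between 629 and 11487 CPM and the Mir106a-363 genes between 4.31 and 154 CPM, with no overlap of the 2 clusters in either library.

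Summed over its genes, the Mir106b-25 cluster held 1.95% and 1.62% of the counts of replicates 1 and 2, a mean of 1.79% ± 0.23 (SD, n = 2). The 95% Clopper-Pearson intervals ran from 1.94% to 1.96% for the former and from 1.61% to 1.63% for the latter. The Mir106a-363 cluster held 0.0516% (0.0498% to 0.0535%) and 0.0501% (0.0482% to 0.0521%), a mean of 0.0509% ± 0.0011. Counts of the Mir106b-25 cluster exceeded those of the Mir106a-363 cluster 37.8-fold and 32.4-fold in the 2 libraries (log2 ratio 5.13 ± 0.16, n = 2). A ratio within a library does not depend on how libraries are scaled. Without Mir19b-2 and Mir92-2, the members that share words with other hairpins, the mean ratio was 49.0-fold in place of 35.1-fold. Both lie in the Mir106a-363 cluster, so leaving them out could only raise the ratio. Reads that they share with Mir19b-1 and Mir92-1 are missing from the Mir106a-363 counts, which can likewise only raise the ratio. How far it does so was not tested. In 2 libraries the smallest exact two-sided p that such a ratio can reach is 0.5, so no test is given.

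Counterparts in the 2 clusters were compared within each seed family. Mir106b exceeded Mir106a by 53.7-fold and 42.8-fold, and Mir93 exceeded Mir20b by 117-fold and 78.6-fold. Mir25 exceeded Mir363 by 7.13-fold and 6.55-fold and, by gene counts that leave out the reads shared with Mir92-1, Mir92-2 by 5.22-fold and 5.14-fold. In both libraries the ratios of Mir106b to Mir106a and of Mir93 to Mir20b were larger than that of Mir25 to Mir363. Within the Mir106b-25 cluster the highest gene exceeded the lowest by 14.3-fold and 14.6-fold, and within the Mir106a-363 cluster by 30.4-fold and 34.6-fold. In the latter the lowest gene was Mir19b-2, and the highest in replicate 1 was Mir92-2. Both are counted without the reads that fit their Mir17hg copies, so the 2 spreads are not alike in what they cover.

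Beside their Mir17hg counterparts, Mir106a, Mir20b and Mir18b were lower in both libraries. Mir17 exceeded Mir106a by 177-fold and 139-fold, Mir20a exceeded Mir20b by 108-fold and 95.2-fold, and Mir18a exceeded Mir18b by 347-fold and 414-fold. The gene counts of Mir92-1 exceeded those of Mir92-2 by 24.5-fold and 22.6-fold, and those of Mir19b-1 exceeded those of Mir19b-2 by 2.30-fold and 2.55-fold. These 2 pairs share their guide arm, so the ratios cover only the reads that were counted at a single copy. Whether each such read came from that copy was not tested. Put the other way, Mir106a amounted to 0.566% and 0.722% of the counts of Mir17, whose guide arm differs from that of Mir106a at 1 base. Mir18b amounted to 0.288% and 0.241% of the counts of Mir18a. Whether reads of the abundant paralog with a base error were counted in the scarce one was not tested. In the Mir106b-25 cluster, Mir93 stood at the level of Mir20a (10658 and 11155 CPM), above it in replicate 1 and below it in replicate 2. Mir17 exceeded Mir106b by 3.29-fold and 3.24-fold and by gene counts Mir92-1 exceeded Mir25 by 4.69-fold and 4.41-fold. As a whole the Mir17hg cluster exceeded the Mir106b-25 cluster by 2.17-fold and 2.44-fold.

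Genes with any RefSeq mature arm that carries a guide seed of the members were also grouped by that seed, as shares of the counts assigned to genes. For the miR-25 and miR-19 families these are not shares of the mature miRNA, because Mir92-1, Mir92-2, Mir19b-1 and Mir19b-2 lack the reads that fit both copies. The miR-17 family came to 53389 and 47710 CPM, of which the Mir106b-25 cluster held 35.1% and 32.7% and the Mir106a-363 cluster 0.436% and 0.559%; the rest came from Mir17 and Mir20a, and Mir6383, which has a mature arm with this seed, had no count. The miR-25 family counts came to 5100 and 3881 CPM, with 15.8% and 16.2% from Mir25 and 5.22% and 5.63% from Mir92-2 and Mir363 together. Mir32, the family member in an intron of Tmem245, lay at 249 and 250 CPM, below Mir25 and above Mir363, which it exceeded by 2.21-fold and 2.60-fold. Mir92b, which no rule named and whose values were known when it was chosen, had 84 and 60 counts. Mir367 had no count in either library, where a count of 0 allows up to 3 counts (0.506 and 0.588 CPM, a one-sided limit). Mir18b held 0.287% and 0.241% of the miR-18 family and Mir19b-2 6.79% and 4.74% of the miR-19 family, which came to only 74.5 and 90.9 CPM in gene counts. Counts are per hairpin, so reads of the other arm are included.

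**Figure D3:**
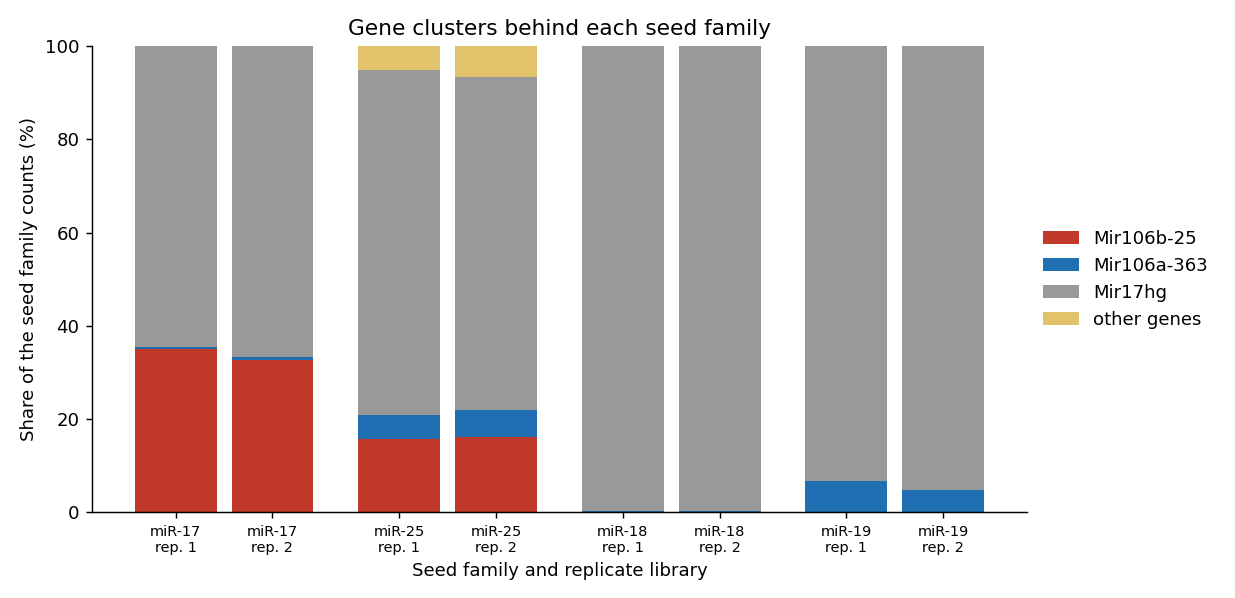
Share of the gene counts of each seed family, in percent (y axis), in the Mir106b-25, Mir106a-363 and Mir17hg clusters and in other genes, for each replicate library (x axis). The Mir106b-25 cluster held 35.1% and 32.7% of the miR-17 family; shares in the miR-25 and miR-19 families leave out reads that fit both copies of miR-92a-3p or miR-19b-3p.

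Between the pools, the 3 genes of the Mir106b-25 cluster were all lower in replicate 2, whereas the Mir106a-363 genes were not all moved one way. Each gene with at least 10 counts over both libraries was compared with an exact binomial test of its counts against the libraries' share of the total, adjusted by Benjamini-Hochberg over 440 genes. This test compares these libraries and covers counting error only. Of the 9 members, all tested, 5 were lower and 1 was higher in replicate 2 past an adjusted p of 0.05. Over all tested genes 43.9% passed in either direction, 26.4% lower and 17.5% higher in replicate 2. Because a deep gene passes more easily, the share was 68.3% among genes of 100 to 1000 CPM and 92.7% among genes above 1000 CPM. Of the 7 members with a mean of at least 100 CPM 6 passed, and of the 2 scarcer ones none, which is near the background at their levels.

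Mir93 had a log2 ratio of -0.32 (counting SE 0.01), Mir25 of -0.35 (SE 0.03) and Mir106b of -0.18 (SE 0.01), replicate 2 over replicate 1. Their exact binomial adjusted p-values were 1.02e-299, 3.11e-26 and 4.11e-62. The median over the 440 tested genes was -0.08, and the 5th to 95th percentiles of genes above 1000 CPM ran from -0.47 to 0.27, so neither Mir93 nor Mir106b stood outside it, nor did Mir25 among genes of 100 to 1000 CPM (-0.55 to 0.45). The 3 ratios correspond to 1.13-fold to 1.28-fold. In the cluster on the X chromosome, Mir92-2 was lower by 0.33 on the log2 scale (SE 0.07, exact binomial adjusted p = 3.81e-05) and Mir363 by 0.23 (SE 0.09, adjusted p = 0.0192). Mir20b was higher, with a log2 ratio of 0.25 (SE 0.08, adjusted p = 0.00752). Mir106a (log2 ratio 0.15, SE 0.07), Mir18b (0.02, SE 0.25) and Mir19b-2 (-0.22, SE 0.40) did not pass, with exact binomial adjusted p-values of 0.0890, 1 and 0.818. Mir106a, Mir20b, Mir92-2 and Mir363 also lay within the 5th to 95th percentiles of genes of 100 to 1000 CPM.

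With TMM scaling Mir363 no longer passed (adjusted p = 0.153 in the exact binomial test) and Mir106a passed as higher (log2 ratio 0.23, adjusted p = 0.00564), so the split of 6 calls became 4 lower and 2 higher; DESeq2 size factors gave the same split. With edgeR's exact test and a common biological coefficient of variation of 0.229, none of the 9 members passed and none had an unadjusted p under 0.05. Over all genes 2 passed this test, 0.455% of those tested, and 22 had an unadjusted p under 0.05. That coefficient was estimated from the very difference between the 2 libraries that is tested, so few calls are built into this test and nothing about the members rests on it.

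Set side by side by seed, log2 ratios in the miR-25 family were -0.44 for Mir92-1, -0.35 for Mir25 and -0.33 for Mir92-2. They were -0.27 for Mir92b, -0.23 for Mir363 and 0.00 (SE 0.06) for Mir32, and neither Mir92b nor Mir32 passed. The median over the 440 tested genes was itself below 0, at -0.08. Mir92-1 lay within the 5th to 95th percentiles of genes above 1000 CPM (-0.47 to 0.27). In the miR-17 family the log2 ratios were -0.20 for Mir17, -0.32 for Mir93, -0.18 for Mir106b, 0.07 for Mir20a, 0.15 for Mir106a and 0.25 for Mir20b.

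**Figure D4:**
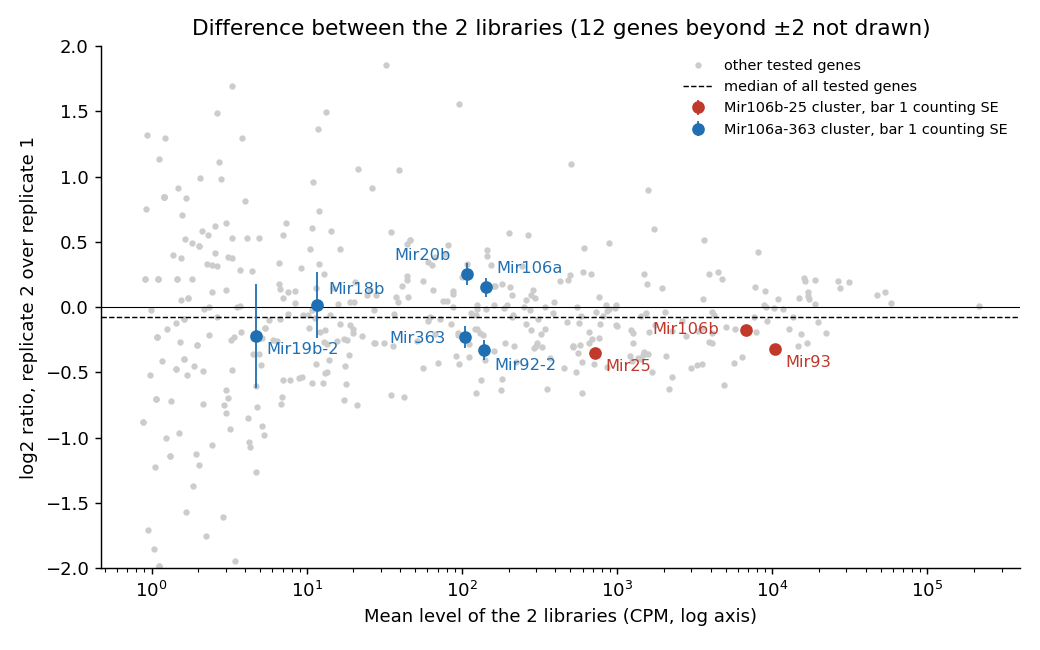
Log2 ratio of replicate 2 over replicate 1 (y axis) against mean level in CPM (x axis, log scale) for the 440 tested genes in grey and the 9 members in colour, with bars of 1 counting SE; the dashed line is the median of all tested genes, and 12 genes beyond ±2 are not drawn. The members lie between -0.35 and 0.25, inside the cloud of other genes at their level.

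The libraries held 5930074 and 5102289 counts on the annotated strand of miRNA genes, where 1 count is worth 0.169 and 0.196 CPM. The 9 members had no count on the opposite strand. Mir122, the hepatocyte miRNA that defines the labelled tissue, held 21.3% and 21.5% of the counts. Blood, endothelial and mesenchymal markers were counted too, so the profile is of a mixed tissue, and in such bulk samples fewer cells of a type and less RNA per cell cannot be told apart. Between the pools, summed levels of the marker lists moved by log2 0.01 (hepatocyte, 1 of 1 gene with a row), 0.17 (erythroid, 3 of 3), -0.04 (stem and progenitor, 4 of 4), 0.06 (leukocyte, 3 of 4), 0.09 (endothelial, 1 of 1), 0.18 (mesenchymal, 3 of 3) and 0.58 (epithelial and biliary, 5 of 5). Their summed level was 4266 and 6376 CPM for the epithelial and biliary list, and the other lists ranged from 16068 to 214555 CPM. The sums hide opposite moves within lists. By the exact binomial test 1 gene was lower and 2 were higher in the erythroid list and in the mesenchymal list. In the stem and progenitor list 3 were lower and 1 was higher, while all 5 epithelial and biliary genes were higher. No marker with a row was at 0 in a library, and the part of the markers in the members' differences was not tested.

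For each cluster the member with the highest mean CPM was taken, Mir93 and Mir106a. Mir106a was not above Mir92-2 in both libraries, and Mir92-2 is counted without the reads it shares with Mir92-1. The genes nearest to each were found by the distance between log2(CPM + 0.5) values over the 2 libraries. For Mir93 they were Mir154 (10258 and 10216 CPM, distance 0.22), Mir369 (9557 and 8885 CPM, distance 0.27) and Mir20a of the Mir17hg cluster (distance 0.30). For Mir106a they were Mir499 (145 and 143 CPM, distance 0.12), Mir6236 (125 and 163 CPM, distance 0.17) and Mir7-1 (136 and 170 CPM, distance 0.18). No other member was among the 3 nearest to either gene. Over 2 libraries such likeness describes the level and little else.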

How the data were processed

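Raw counts per miRNA gene were deposited by the authors for each library, in tables without a header. Assembly mm10 and annotation M4 are named in the deposited text description. Not given in the sources used here were the aligner, the counting program and any use of molecular identifiers. The column of counts on the annotated strand was used, and the 4 tally rows were left out of totals. Names, coordinates and hairpins came from GENCODE M21 on the same assembly (1894 of 1973 rows matched). The gene named Mir18 there is called Mir18a.

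Groups came from the source label. Members, lists and rules were chosen with earlier results of these data known. All members, the Mir17hg genes, Mir32 and Mir367, and the 3 genes nearest in level were named by rule. For log2 ratios 0.5 was added to each count. A quasi-likelihood test has no contrast within 1 group, so the exact binomial test was used (SciPy 1.17.1), with edgeR 4.0.16 and DESeq2 1.42.0 in R 4.3.3 for alternatives. The test was tried on simulated counts. The replicates are labelled biological, and p-values cover these 2 libraries only.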

Additional observations from a re-analysis of the deposited data

How the results depend on the processing

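Of 45 log2 ratios of members recomputed with counts irrespective of strand, TMM or DESeq2 scaling, a total without Mir122 or 2 added to each count, 41 kept direction and side of the threshold, 2 lost the call (Mir363) and 2 gained it (Mir106a), all 4 under TMM or DESeq2 scaling, and none reversed. TMM moved the median of all tested genes by 0.08. With edgeR's exact test and a common dispersion the genes called fell from 193 to 2 and the members called from 6 to 0; its dispersion comes from the same difference between the libraries, so few calls are part of its construction. With all tallied reads as the total, the share of the Mir106b-25 cluster was 0.749% and that of the Mir106a-363 cluster 0.0213%; without Mir122 in the total they were 2.27% and 0.0647%, both set by the changed total. Irrespective of strand the Mir106a-363 share was 0.0467%. Without members sharing any word it was 0.0366%, and the ratio of the clusters was 49.0. Only Mir106a-363 genes were left out there, so the direction of both changes was fixed. Without replicate 1 or without replicate 2, the shares ranged from 1.62% to 1.95% and from 0.0501% to 0.0516%, and the ratio from 32.4 to 37.8. Depth limits Mir18b and Mir19b-2, with 22 to 69 counts in a library. Mir19b-2 is also limited by the reads it shares with Mir19b-1, which more depth would not assign. No paired analysis was possible because there is only 1 group.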

Other observations

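Mature miRNAs whose seed is that of the miR-17 family shifted by 1 base are known from pluripotent cells. In these livers 5 such genes had a row, and each reached 1 CPM in both. Together they came to 60.5 and 64.1 CPM, led by Mir294 (160 and 147 counts) and Mir302d (112 and 81 counts). Their sum lay below each of Mir106a, Mir20b, Mir92-2 and Mir363 in both libraries and above Mir18b and Mir19b-2. The seed was chosen after values were seen, and the levels are a description.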
